A study of Mus musculus with 6 samples.

Results

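The orexin and melanin-concentrating hormone (MCH) systems were followed through 5 genes, named by symbol as the precursors of the peptides and their receptors: Hcrt, Pmch, Hcrtr1, Hcrtr2 and Mchr1. They are 5 of the 24532 genes in the deposited table and 7 of its 36780 transcripts. The set was chosen by peptide family and on the read counts of these same 6 libraries, ethanol against control, so levels and group differences are given as a description, without a test. The tissue, labelled as the core of the nucleus accumbens in the ventral striatum, came from wild-type (WT) male mice, labelled adolescent with postnatal days 35 to 55. The 6 samples fell by their titles into 3 ethanol and 3 control libraries. According to the labels, contextual fear conditioning and extinction trials came before an every-other-day drinking assay of 27 days, and tissue was taken 24 h after drinking ended. The treatment protocol, worded alike for every sample, was 20% v/v ethanol in saline given intraperitoneally 6 times within 6 h, starting with 1.8 g/kg and going on with 1.2 g/kg each time. The treatment field also read ethanol exposure in all 6 samples, and what the control mice received in place of the injections was not stated. Whether a sample came from 1 animal or from pooled animals was not stated either, so the spread between samples may be technical.

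Orexin and MCH are made by separate sets of neurons in the lateral hypothalamus, whose axons reach much of the brain. Hcrt encodes the precursor of orexin-A and orexin-B, peptides known for wakefulness and reward seeking, and loss of the orexin neurons causes narcolepsy. Pmch encodes the precursor of MCH, a peptide that promotes feeding and acts during sleep, and the accumbens is known as a site where MCH increases food intake in rodents. Hcrtr1 and Hcrtr2 encode the orexin receptors, which couple mainly to Gq proteins, with Hcrtr1 preferring orexin-A. Mchr1 encodes the MCH receptor of rodents, which couples to Gi and Gq proteins and sits on the primary cilium of neurons.

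Both precursor genes are short and had at least 10474 reads in every library, so the stretch before each start site is shown, to set the precursors beside their receptors. Each sequence is the 250 bases upstream of the RefSeq start in GRCm38.p6, read 5′ to 3′ on the strand of the gene. The Hcrt window lies at chr11:100762932-100763181 on the minus strand and the Pmch window at chr10:88090822-88091071 on the plus strand. Capitals mark the letters TATAAA of the TATA box.
Hcrt: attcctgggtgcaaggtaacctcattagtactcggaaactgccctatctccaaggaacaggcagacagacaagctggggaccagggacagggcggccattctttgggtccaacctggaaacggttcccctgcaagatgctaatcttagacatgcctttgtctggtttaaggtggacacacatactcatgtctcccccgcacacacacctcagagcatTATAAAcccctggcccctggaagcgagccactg
Pmch: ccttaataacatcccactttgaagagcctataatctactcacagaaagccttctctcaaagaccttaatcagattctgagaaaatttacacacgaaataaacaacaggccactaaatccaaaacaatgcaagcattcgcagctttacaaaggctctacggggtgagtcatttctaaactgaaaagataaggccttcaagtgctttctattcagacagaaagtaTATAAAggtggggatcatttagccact
The first T of the motif lay 33 bases before the start in Hcrt and 27 bases before it in Pmch. Searched on both strands, TATAAA was present in 12.4% of all 32851 promoter windows of this length. On the strand of the gene it was present in 7.59% of them, and in 1.87% it lay whole between 40 and 21 bases before the start. The 5 windows of the 3 receptor genes, of which 3 belong to Hcrtr1, did not hold these letters on either strand. The Pmch window was 38.4% G or C and the Hcrt window 53.6%, where the median over all windows was 52.4%. A match of letters is a description of the sequence and shows no binding.

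The peptide precursors were abundant in all 6 libraries, and of the 5 genes Pmch alone had its 3 ethanol libraries entirely below its 3 control libraries. Among all 15774 genes tested, 8.41% had all ethanol values below all control values and 9.35% had them all above. The fitted Pmch level in ethanol was 0.50 times that in control, while for Hcrt the same fold was 1.04. In edgeR 0 of the 5 genes passed an adjusted p of 0.05, as did 0% of all genes in either direction, and nothing is read from that count here. DESeq2 called 0.323% of all genes higher and 0.59% lower at this threshold. Whether any of the 5 was among them is not given here. In bulk tissue, fewer cells of a type, less RNA per cell and a different share of neighbouring tissue cannot be told apart.

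Hcrt, on chromosome 11 from 100761693 to 100762931 in mm10, is a single transcript of 584 bases in the table and overlapped no other gene there. It had 332, 361 and 281 CPM (counts per 1e6 reads, TMM-scaled) in ethanol 1, 2 and 3, against 262, 376 and 297 CPM in control 1, 2 and 3. The groups overlapped, with control 2 the highest and control 1 the lowest library. Hcrt averaged 325 ± 40.6 CPM in ethanol and 312 ± 58.1 CPM in control (SD, n = 3 each). The log2 fold change of ethanol over control was 0.06 (SE 0.18), and it turned to -0.03 with total counts in place of TMM scaling. Behind these values stood 10474 to 20827 reads in the ethanol libraries and 10858 to 15122 reads in the control libraries. The highest library was 1.43 times the lowest, the smallest such ratio among the 5 genes.

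Pmch, on chromosome 10 from 88091072 to 88092374, is a single transcript of 748 bases. It had 218, 393 and 355 CPM in ethanol 1, 2 and 3, against 564, 764 and 605 CPM in control 1, 2 and 3. The groups did not overlap, and ethanol 1 was the lowest library and control 2 the highest. Pmch averaged 322 ± 91.9 CPM in ethanol and 644 ± 106 CPM in control (SD, n = 3 each), and its log2 fold change was -1.001 (SE 0.23). The value was -0.78 without ethanol 1 and -1.18 without ethanol 2, the ends of its range when 1 library was left out. Reads numbered 13229 to 16134 in ethanol and 22137 to 32495 in control. Of the 1303 bases that Pmch spans, 977 toward its far end overlap Parpbp, a gene on the opposite strand. Whether counting used strand is not given in the sources used here, so reads from the overlap cannot be assigned to 1 gene of the pair. Parpbp itself had 21, 42 and 26 reads in ethanol 1, 2 and 3, against 64, 50 and 44 reads in control 1, 2 and 3.

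**Figure D1:**
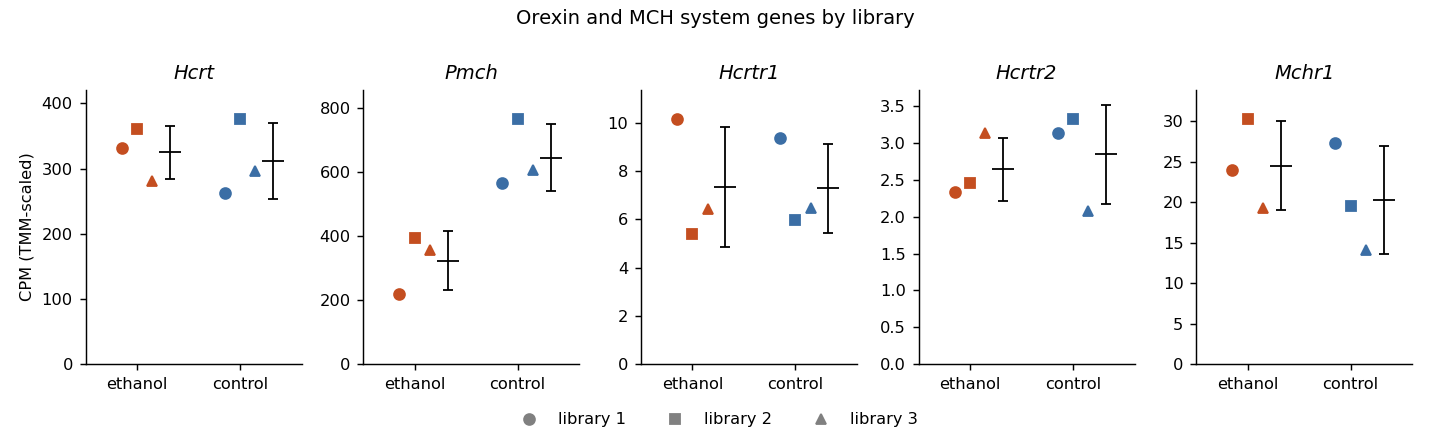
TMM-scaled CPM of the 5 genes in each library, ethanol left and control right, with the mean and SD of the 3 libraries beside the points and the marker shape giving the library number. The Pmch values of the ethanol libraries, 218 to 393 CPM, lie below all control values, 564 to 764 CPM, and the groups overlap in the other 4 genes.

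Set against each other within a library, the precursors held a different proportion in each group. On the FPKM scale, which divides by transcript length and so allows genes to be compared, the ratio of Pmch to Hcrt was 0.51, 0.85 and 0.99 in ethanol 1, 2 and 3, against 1.68, 1.59 and 1.59 in control 1, 2 and 3. Pmch stood above Hcrt in every control library and below it in every ethanol library, by little in ethanol 3. The ratio averaged 0.78 ± 0.24 in ethanol and 1.62 ± 0.05 in control (SD, n = 3 each). Scaling between libraries cancels in this ratio. It was nearly the same in the 3 control libraries although Hcrt itself ranged from 384 to 556 FPKM there. Both genes entered the choice of members, so the ratio is described and not tested. As Hcrt differed little between groups, the group difference in the ratio restates that of Pmch and is no separate observation.

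**Figure D2:**
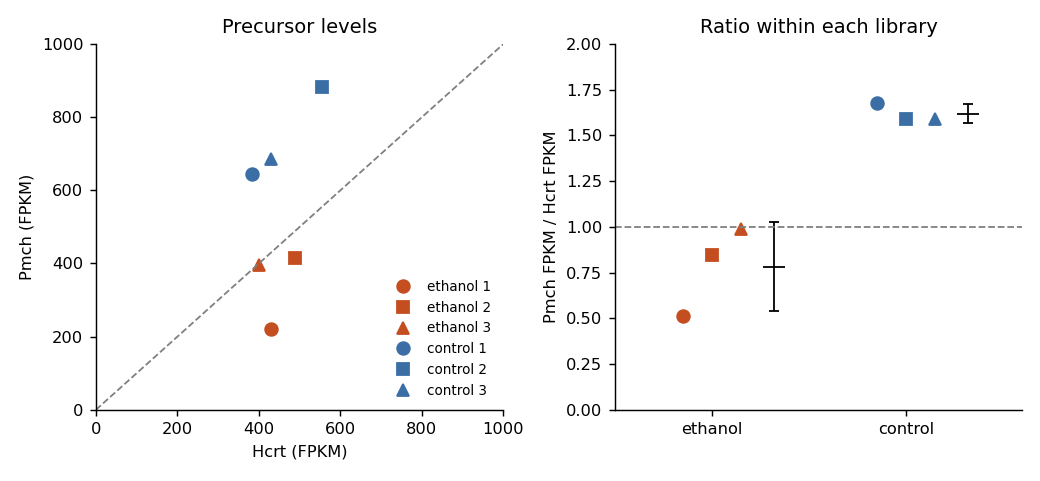
Left, Pmch against Hcrt in FPKM, 1 point per library, with the dashed line marking equal levels. Right, the ratio of Pmch to Hcrt in each library with mean and SD, where the ethanol libraries lie at 0.51 to 0.99 and the control libraries at 1.59 to 1.68.

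Measured per length, the precursors ranked near the top of the transcriptome. Hcrt had 431, 489 and 400 FPKM in ethanol 1, 2 and 3, against 384, 556 and 430 FPKM in control 1, 2 and 3. Among 24532 genes ordered by FPKM it ranked between 89 and 144 in ethanol and between 81 and 151 in control. Pmch had 221, 415 and 395 FPKM in ethanol 1, 2 and 3, against 644, 882 and 685 FPKM in control 1, 2 and 3. Its rank was 114 to 273 in ethanol and 25 to 56 in control. The median gene with reads had 3.99 to 4.78 FPKM in ethanol and 4.61 to 5.91 FPKM in control. Penk, the enkephalin precursor of striatal projection neurons, had 354, 868 and 342 FPKM in ethanol 1, 2 and 3, against 394, 483 and 410 FPKM in control 1, 2 and 3.

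Of the receptors, Mchr1 was the most abundant per length. Mchr1, on chromosome 15 from 81235499 to 81238964, had 8.31, 10.9 and 7.33 FPKM in ethanol 1, 2 and 3, against 10.7, 7.69 and 5.42 FPKM in control 1, 2 and 3. In CPM it had 24.0, 30.2 and 19.3 in ethanol, against 27.3, 19.5 and 14.1 in control, and the groups overlapped. It averaged 24.5 ± 5.48 CPM in ethanol and 20.3 ± 6.68 CPM in control (SD, n = 3 each), with a log2 fold change of 0.27 (SE 0.26). That value was 0.06 without control 3, 0.08 without ethanol 2, 0.42 without ethanol 3 and 0.55 without control 1.

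Hcrtr1, on chromosome 4 from 130130217 to 130139162, had 10.1, 5.40 and 6.44 CPM in ethanol 1, 2 and 3, against 9.39, 5.98 and 6.48 CPM in control 1, 2 and 3. Libraries numbered 1 were the highest in both groups, and the groups overlapped almost fully. Hcrtr1 averaged 7.33 ± 2.49 CPM in ethanol and 7.28 ± 1.84 CPM in control (SD, n = 3 each), and its log2 fold change was 0.01 (SE 0.29). The sign is not fixed, since the value was -0.30 without ethanol 1 and 0.24 without control 1. Transcript variant 1 carried 559, 222 and 225 reads in ethanol and 529, 0 and 231 in control, and variant 3 carried 12, 0 and 10 in ethanol and 0, 230 and 5 in control. In control 2 the estimate thus put all reads on variant 3 and in the other 5 libraries most of them on variant 1, so only the sum over variants is compared.

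Hcrtr2, on chromosome 9 from 76225880 to 76323578, was the least abundant of the 5 genes. It had 2.34, 2.46 and 3.14 CPM in ethanol 1, 2 and 3, against 3.14, 3.33 and 2.08 CPM in control 1, 2 and 3. The groups overlapped, with control 3 the lowest and control 2 the highest library. Hcrtr2 averaged 2.65 ± 0.43 CPM in ethanol and 2.85 ± 0.67 CPM in control (SD, n = 3 each), and its log2 fold change was -0.11 (SE 0.30), or 0.02 without control 2 and -0.29 without control 3. These values rest on 101 to 147 reads in ethanol and 76 to 181 reads in control. The exact 95% Poisson interval, which covers counting error only, ran from 1.98 to 2.75 CPM in ethanol 1 and from 1.64 to 2.60 CPM in control 3.

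In order of FPKM the means were 440 ± 44.9 for Hcrt, 344 ± 107 for Pmch, 8.85 ± 1.85 for Mchr1, 2.63 ± 0.81 for Hcrtr1 and 0.56 ± 0.12 for Hcrtr2 in ethanol (SD, n = 3). In control they were 737 ± 127 for Pmch, 457 ± 88.7 for Hcrt, 7.93 ± 2.63 for Mchr1, 2.83 ± 0.73 for Hcrtr1 and 0.65 ± 0.16 for Hcrtr2. The top of the order thus differed between groups, which restates the Pmch difference. The ranges of Hcrt and Pmch overlapped in ethanol and lay apart in control. Below them, the ranges of neighbouring genes did not overlap in either group. Within a library Hcrtr1 was 3.49 to 7.39 times Hcrtr2 in ethanol and 3.04 to 5.32 times in control.

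**Figure D3:**
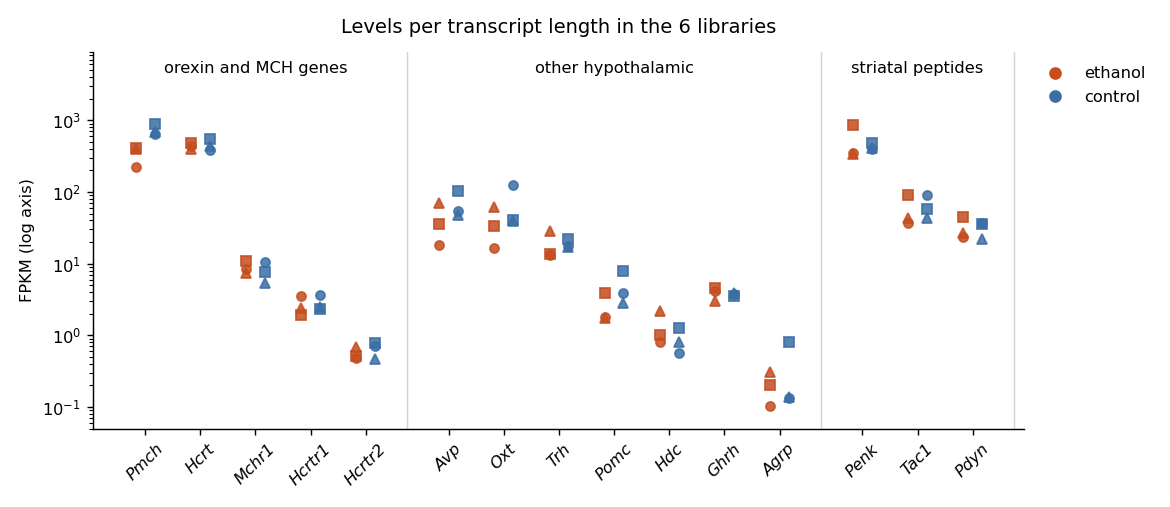
FPKM on a log axis of the 5 genes, of 7 other hypothalamic genes and of 3 striatal peptide genes, 1 point per library, ethanol left and control right in each pair. Hcrt and Pmch lie above the other hypothalamic genes in every library.

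Because the cell bodies that make Hcrt and Pmch are known to lie in the lateral hypothalamus and not in the accumbens, the labelled tissue was checked against markers of neighbouring regions. All 15 listed genes of striatal projection neurons had at least 10 reads in every library, with a summed level of 2530 to 4476 CPM in ethanol and 2231 to 2681 CPM in control. Their median log2 fold change was 0.44, with 14 of 15 above 0, 5 at an unadjusted p under 0.05 in edgeR and 0 passing. Such a p was met by 1681 of all 15774 genes. The part of the striatal difference in the values of the orexin and MCH genes was not tested. Of the 24 hypothalamus genes, all had at least 10 reads in some library and 16 had them in every library. Their summed level was 120 to 198 CPM in ethanol and 135 to 199 CPM in control, so the groups overlapped in it. A few peptide genes made up much of this sum. Oxt alone held 79.0 of the 199 CPM in control 1, and Avp 51.6 of the 198 CPM in ethanol 3. Nr5a1, a factor of the ventromedial hypothalamus, was at 0 in every library but ethanol 3, and Six6 was at 0 in 3 libraries. Whether tissue of the hypothalamus contributed to the Hcrt and Pmch reads was not tested.

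Among the other hypothalamic peptides, Avp, the vasopressin precursor, had 14.6, 27.8 and 51.6 CPM in ethanol 1, 2 and 3, against 38.6, 71.8 and 34.9 CPM in control 1, 2 and 3. Oxt, the oxytocin precursor, had 11.9, 23.1 and 40.6 CPM in ethanol, against 79.0, 25.7 and 25.2 CPM in control. Trh, the precursor of thyrotropin-releasing hormone, had 24.1, 24.1 and 47.6 CPM in ethanol, against 28.8, 34.8 and 27.6 CPM in control. In all 3 the groups overlapped, and ethanol 3 was the highest ethanol library. Pomc, the precursor of melanocortins, had 2.92, 5.96 and 2.58 CPM in ethanol, against 4.74, 9.41 and 4.07 CPM in control. Agrp, a feeding peptide of the arcuate nucleus, was under 1 CPM in all 6 libraries. Log2 fold changes of the 19 hypothalamus genes that were tested ran from -0.79 for Oxt to 2.02 for Hmx3, a transcription factor gene with 0 reads in control 2. Their median was 0.17, against 0.02 for all genes, with 14 above 0 and 5 below, and 0 passed in edgeR. Those below 0 were Oxt, Pomc (-0.67, SE 0.41), Avp (-0.63, SE 0.42), Lhx9 (-0.39) and Uncx (-0.12). The highest values were of genes with few reads. Hmx3 averaged 0.86 CPM in ethanol and 0.21 CPM in control. Otp, at 1.42 (SE 0.66), averaged 2.70 and 1.01 CPM, and Fezf1, at 0.87 (SE 0.48), 2.39 and 1.31 CPM.

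**Figure D4:**
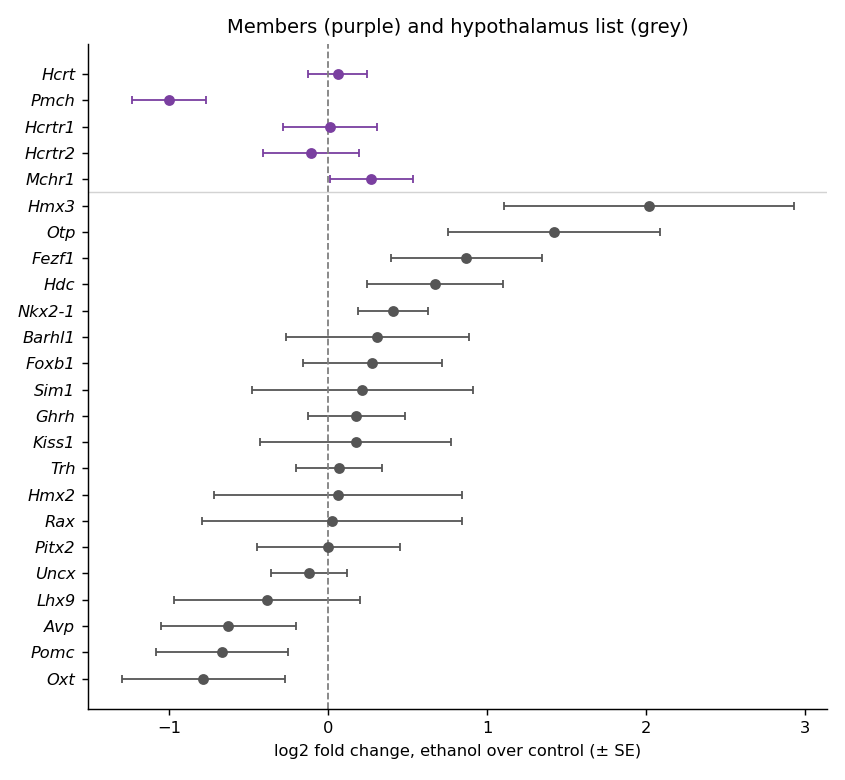
Log2 fold change of ethanol over control with its standard error for the 5 genes (purple) and the 19 tested genes of the hypothalamus list (grey). Pmch lies at -1.001 and Hcrt at 0.06, and the hypothalamus list spreads from -0.79 to 2.02 with standard errors mostly wider than those of the precursors.

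Markers of other regions differed between libraries, and their part in the values above was not tested. In edgeR 0 genes of these 5 lists passed. Thalamus genes summed to 168 to 423 CPM in ethanol and 270 to 589 CPM in control. Prkcd alone held 281 of the 589 CPM, in control 3. Of the thalamus fold changes 6 of 7 were below 0, with a median log2 fold change of -0.33. Cortical excitatory neuron genes summed to 89.8 to 200 CPM in ethanol and 199 to 469 CPM in control. Slc17a7 alone held 289 of the 469 CPM, in control 1. Of the cortical fold changes 10 of 11 were below 0, with a median of -0.55. Septum and basal forebrain genes summed to 89.0 to 116 CPM in ethanol and 62.8 to 84.4 CPM in control, with 7 of 8 above 0 and a median of 0.50. Choroid plexus genes stood at 20.3 to 25.01 CPM in ethanol and at 18.4 to 422 CPM in control, the top value being control 3. Ttr alone held 394 of these 422 CPM. Of the choroid plexus fold changes 5 of 8 were below 0, with a median of -0.07. Meninges genes stood at 40.6 to 48.3 CPM in ethanol and 50.1 to 88.5 CPM in control, with 7 of 7 below 0 and a median of -0.50. An unadjusted p under 0.05 in edgeR was met by 0 thalamus, 4 cortical, 2 septum, 2 choroid plexus and 3 meninges genes. Over all genes, 1681 of 15774 met it. No gene of these lists was at 0 in all 6 libraries.

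The genes around the peptides and receptors were compared in 4 lists, which hold 74 genes, 73 of them tested. By edgeR's quasi-likelihood test with Benjamini-Hochberg adjustment over all genes, 0 were higher and 0 lower in ethanol, and 9 had an unadjusted p under 0.05, where 1681 of all 15774 genes did. limma-voom called 0 of them. DESeq2 called 1 of them, Itpr1, as higher, where it called 0.323% of all genes higher and 0.59% lower.

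The peptide processing list holds enzymes that cleave, trim or amidate precursors, and other genes of secretory granules such as Scg2. It had a median log2 fold change of 0.33 over 12 genes, against 0.02 over all genes, with 11 above 0 and 0 passing. Scg2, a granule protein gene, had 749, 763 and 677 CPM in ethanol 1, 2 and 3, against 439, 593 and 401 CPM in control 1, 2 and 3 (log2 fold change 0.61, SE 0.18, adjusted p = 0.419 in edgeR). The 3 ethanol libraries lay above the 3 control libraries. This held for 6 of the 12 genes of the list, Scg2 among them, and for 9.35% of all genes tested. Pcsk1, a prohormone convertase, had a log2 fold change of 0.59 (SE 0.29), and Pam, the enzyme that amidates peptides such as the orexins, one of 0.52 (SE 0.19). Their edgeR adjusted p were 0.491 and 0.443.

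Genes of receptor signalling, the G proteins, phospholipases, kinases and channels that Gq- and Gi-coupled receptors act on, had a median of 0.18 over 27 genes, with 19 above 0 and 0 passing. Itpr1, the calcium release channel opened by inositol trisphosphate, had 285, 134 and 215 CPM in ethanol 1, 2 and 3, against 111, 116 and 89.0 CPM in control 1, 2 and 3. The groups did not overlap, and ethanol 2 lay nearest to control. Its log2 fold change was 1.003 (SE 0.26, edgeR adjusted p = 0.419). Trpc4, a cation channel gene, had 0.59 (SE 0.24) and Prkcb, a protein kinase C gene, 0.49 (SE 0.17), with edgeR adjusted p of 0.448 and 0.439. Without ethanol 2 edgeR called 3 genes of the 4 lists higher, Itpr1, Plcb4 and Kif3b, where it called 1.26% of all genes higher and 0.0628% lower.

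Genes of the neuronal primary cilium, the compartment that holds the MCH receptor, had a median of -0.08 over 22 genes, with 9 above 0, 13 below and 0 passing. Kif3b, a subunit of the motor that carries cargo into cilia, had 75.4, 52.1 and 64.8 CPM in ethanol 1, 2 and 3, against 41.9, 42.5 and 36.0 CPM in control 1, 2 and 3 (log2 fold change 0.68, SE 0.18, edgeR adjusted p = 0.419). Adcy3, the adenylyl cyclase of neuronal cilia, had a log2 fold change of 0.66 (SE 0.21), and Arl13b, a GTPase of the ciliary membrane, one of -0.44 (SE 0.23). Their edgeR adjusted p were 0.43 and 0.507.

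The list of companion genes of orexin and MCH neurons had a median of 0.01 over 12 tested of 13, with 6 on each side of 0 and 0 passing. It also holds Parpbp, which is listed for its overlap with Pmch and not as a companion gene. Parpbp, at -0.82 (SE 0.51), is 1 of the 6 below 0, so the even split and the median include it. Of genes that MCH neurons share, Cartpt, the CART peptide precursor, had 41.8, 70.9 and 49.6 CPM in ethanol 1, 2 and 3, against 80.3, 67.3 and 46.9 CPM in control 1, 2 and 3, and the groups overlapped. Tacr3, the neurokinin receptor gene of MCH neurons, had 16.3, 10.3 and 16.0 CPM in ethanol, against 10.8, 15.2 and 10.1 CPM in control. Striatal neurons also express Cartpt, Pdyn, Tac1 and Gad1 of this list. Of genes of orexin neurons, Lhx9, a transcription factor gene, had 3.07, 1.39 and 9.07 CPM in ethanol and 3.52, 8.32 and 5.82 CPM in control, a log2 fold change of -0.39 (SE 0.59). Nptx2, a synaptic pentraxin gene, had a log2 fold change of 0.33 (SE 0.17) and Rfx4 one of 0.56 (SE 0.21). The edgeR adjusted p of Lhx9, Nptx2 and Rfx4 were 0.832, 0.495 and 0.448. In bulk tissue, reads of these 3 genes cannot be assigned to orexin neurons. Qrfp, a peptide gene of the lateral hypothalamus, was at 0.13, 0.10 and 0.89 CPM in ethanol and at 0.10, 0 and 0 CPM in control, and was not tested for low counts.

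Likeness of pattern was measured as the root mean square difference in log2 CPM over the 6 libraries, each gene centred on its own mean. The genes nearest to Pmch were Synj2bp-cox16 (0.11), Mx2 (0.12) and Snhg3 (0.13), and no gene came within 0.1. Snhg3, a small nucleolar RNA host gene, had 2.92, 5.75 and 4.56 CPM in ethanol 1, 2 and 3, against 6.37, 8.78 and 7.60 CPM in control 1, 2 and 3. Synj2bp-cox16 and Mx2 overlap or resemble other genes, so their estimated reads are uncertain. Hcrt, which varied little, had 59 genes within 0.1, led by Ybey, Agpat5 and Rhoa at 0.06 each. Nearest to Hcrtr1 were Smad6, Fos and Mmp9 at 0.09, 0.09 and 0.11. Nearest to Hcrtr2 were Zranb3 (0.09), Sema3a (0.10) and the gene model 4930480K23Rik (0.10), and nearest to Mchr1 were Lrrc25 (0.12), the gene model Gm5868 (0.12) and Marveld3 (0.14). With 6 libraries and 15774 genes some near matches arise in any case, and they are a description.

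**Figure D5:**
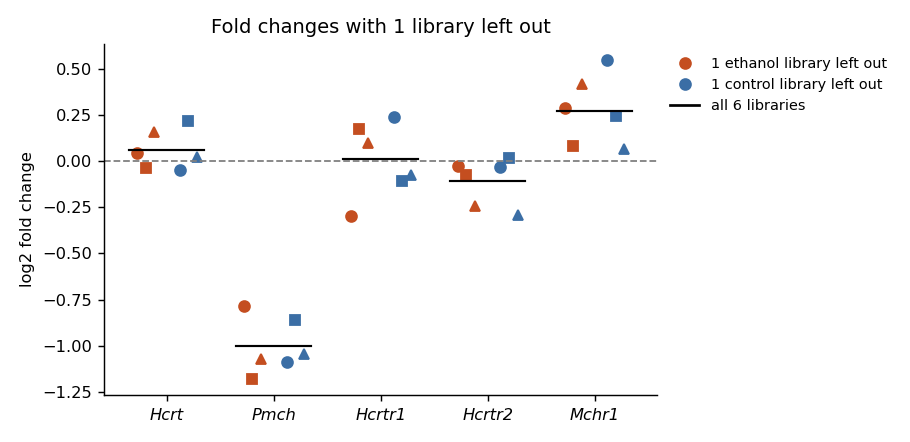
Log2 fold change of ethanol over control for the 5 genes with 1 library left out at a time, orange for an ethanol and blue for a control library, marker shape for its number (circle 1, square 2, triangle 3), and a line for all 6 libraries. Pmch stays between -1.18 and -0.78, and the values of Hcrt, Hcrtr1 and Hcrtr2 fall on both sides of 0.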

How the data were processed

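Messenger RNA of 6 samples was sequenced, 3 ethanol and 3 control by their titles. In the table the authors deposited, the file headers give a read count and an FPKM value for each RefSeq transcript and sample. The build mm10 and bcl2fastq are named in the submitters' processing notes, and the sources used here do not give the aligner or counter. Counts deposited by the authors are estimated counts, since they equalled FPKM times length times library size rounded up, within 0.05 reads, in 100% of transcripts with up to 200 reads. Counts and FPKM were summed over transcripts by gene identifier. Libraries held 36197592 to 67399599 estimated reads in ethanol and 35898026 to 55672232 in control, and 3 reads were 0.04 to 0.08 CPM.

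Genes were filtered with filterByExpr (minimum count 10), scaled with TMM and compared by the quasi-likelihood test of edgeR 4.0.16 in R 4.3.3, two-sided, with Benjamini-Hochberg adjustment. All 5 genes passed the filter, with at least 76 reads in every library. The standard error is the log2 fold change over the square root of F. DESeq2 1.42.0, limma 3.58.1 and other settings were alternatives. The fit was tested on simulated data. The members and the gene lists were chosen with earlier results of these data known. Named were the 5 members, list genes past the threshold, the 3 largest fold changes per pathway list (mean log2 CPM of at least 1), hypothalamus genes with 10 reads in a library, given as examples and ranges, and the 3 genes of nearest pattern per member. Parpbp, Cartpt, Tacr3, Plcb4, Penk, Prkcd, Slc17a7 and Ttr were named in addition, after their values were seen. Figures were drawn with matplotlib 3.10.9.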

Additional observations from a re-analysis of the deposited data

How the results depend on the processing

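Over 14 alternatives each, the fold changes of all 5 genes stayed within the spread between replicates of the value in the text. Those of Pmch and Mchr1 kept their sign. With 3 libraries per group, leaving 1 out can hardly move a group mean beyond that spread, so these settings were a weak check. The sign of Pmch could hardly change in them either, since its groups did not overlap. The sign changed in 4 alternatives for Hcrt, 7 for Hcrtr1 and 1 for Hcrtr2. With 1 library left out, log2 fold changes ran from -0.05 to 0.22 for Hcrt, -1.18 to -0.78 for Pmch, -0.30 to 0.24 for Hcrtr1, -0.29 to 0.02 for Hcrtr2 and 0.06 to 0.55 for Mchr1. edgeR called 0 genes, and DESeq2 called 144 (51 higher and 93 lower in ethanol), among them 1 of the pathway lists. With 1 library left out edgeR called 0 to 211 genes and 0 to 3 of the pathway lists, the most without ethanol 2 (201 higher and 10 lower), and 1 gene without control 1; the cause was not tested. The other settings gave 0 calls in both. Same-numbered samples deviated together with correlations of 0.114, -0.013 and 0.01, so the numbers were not taken to pair them; ethanol 1 alone among the ethanol samples correlated best with its own number. A replicate block gave 0 calls over all genes and 0 in the pathway lists, and a Pmch log2 fold change of -1.03. Depth limits Hcrtr2 most, with 76 to 181 reads per library.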
